A study of Mus with 2 samples.

Results

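The C/EBP family comprised 6 genes here, Cebpa, Cebpb, Cebpd, Cebpe, Cebpg and Cebpz, out of 20060 genes that could be named on the array and 13533 that rose well above background on 1 or both. They were taken by gene symbol, and the set was selected with its measured values in view, because Cebpe, a known retinoic acid target, was higher on the GW4064 array. The differences of the members between the arrays are therefore given as a description. The data are 1 Agilent 1-colour array of bone marrow-derived macrophages (BMDMs) given DMSO, the solvent, and 1 array of BMDMs given 10 µM GW4064, a synthetic agonist of the nuclear receptor FXR, each for 24 h. Both cultures came from marrow of male C57BL6/J mice that was grown for 7 d with 10 ng/mL of M-CSF, and both received 10 ng/mL of IL-4 for 24 h, the M2 condition, so that neither array lacks IL-4. With 1 array per condition there was no replicate error and no test of any difference, and a single array on each side limits how precise any value can be. The labels do not say how many mice the marrow came from.

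C/EBP proteins are transcription factors that bind DNA as dimers through a basic region and a leucine zipper (bZIP), and they pair with one another and with other bZIP factors. In the myeloid lineage C/EBPα directs precursors towards granulocytes and monocytes, C/EBPβ and C/EBPδ act in mature macrophages and in the acute inflammatory response, and C/EBPε governs the last steps of granulocyte maturation and the genes of secondary granules. C/EBPγ carries the zipper without a strong activation domain, and the product of Cebpz, named for binding a CCAAT sequence, is a nucleolar protein without a bZIP domain.

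Each of the 6 genes was read by 1 probe, printed as 1 spot, and each spot was well above background on both arrays and carried no mark of the software for an uneven or outlying spot. Signals below are the processed signal of the spot in arbitrary intensity units, with the error that the scanner software gave for that spot. For every member that error was 10% to 11% of the signal on both arrays, close to a fixed share. Whether the errors of the arrays overlap therefore mostly restates the size of the fold. The signals compare the arrays for 1 probe and do not rank the genes, since probes differ in how brightly they bind. Differences are log2 values of GW4064 minus DMSO after each array had been set to 0 at its own 75th percentile, which stood at 1209 (DMSO) and 1265 (GW4064). Signals, and their sums over gene lists below, are not scaled between the arrays. Such a sum mostly follows its brightest probes, which need not be those of the most abundant RNA.

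Cebpe had a signal of 107 ± 11.8 (software error) with DMSO and 586 ± 58.7 with GW4064, a log2 difference of 2.39 or 5.23-fold. It was the 1 member of 6 that was 2-fold or more higher, and none was 2-fold or more lower. Of all 13533 measured genes 2.04% were higher by 2-fold or beyond and 2.71% lay as far below, and since the rise of Cebpe chose the set, nothing is read from the share of members. The gap in Cebpe was also seen without scaling and without the processing of the software, with only the local background subtracted. The median pixel of its spot minus the local background was 85 with DMSO and 437 with GW4064.

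The activators that are best known in macrophages differed little. Cebpb, a factor that IL-4 and inflammatory signals both use to switch on macrophage genes, had signals of 11464 ± 1146 with DMSO and 12923 ± 1292 with GW4064. Its log2 difference was 0.11, and it turned to -0.08 with a centring on spike-in probes. Cebpd, an acute-phase activator, had signals of 5313 ± 531 and 4898 ± 490 and a log2 difference of -0.18. For both genes the software errors of the arrays, 10% of each signal, overlapped.

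Cebpa, the activator of early myeloid commitment, was lower on the GW4064 array. Its signals were 7839 ± 784 with DMSO and 6062 ± 606 with GW4064, a log2 difference of -0.44 or 1.35-fold lower. This was the next largest difference in the family after Cebpe. The software errors did not overlap, which at 10% of each signal restates the fold. The spot of Cebpa lay among spots that differed strongly between the arrays, as described below.

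The remaining members were close to level. Cebpg had signals of 1031 ± 103 and 1038 ± 104, a log2 difference of -0.06 after scaling. Cebpz had signals of 1397 ± 140 and 1445 ± 145, a log2 difference of -0.02 that turned to 0.02 with a normexp background correction. Ddit3 encodes CHOP, the stress-induced bZIP partner that has also been called C/EBP zeta and is not the product of Cebpz. Its signals were 1543 ± 154 and 1610 ± 161, with a log2 difference of 0.00. Over the 6 members 2 were higher and 4 were lower, with a median of -0.04, beside a median of 0.01 and 51.6% of genes higher over all measured genes.

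**Figure D1:**
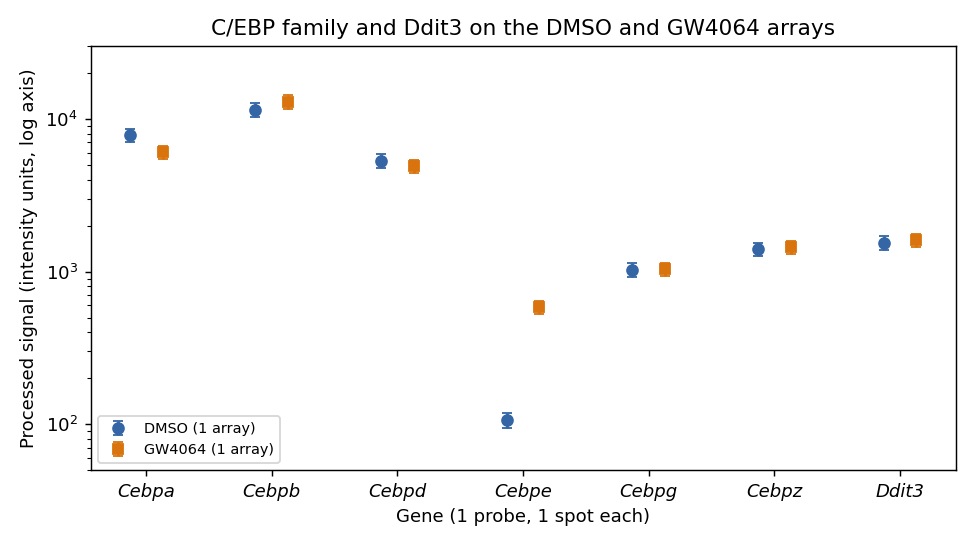
Processed signal in intensity units (log axis) of the 6 C/EBP genes and Ddit3 on the DMSO array (circles) and the GW4064 array (squares), 1 spot per gene and array. Bars are the error given by the scanner software, 10% to 11% of each signal. Cebpe is the gene with a wide gap, 107 against 586, and signals of different genes are not comparable because they come from different probes.

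The only repeated measurement on the arrays was of probes printed 10 times. Over the copies of 227 such probes that were well above background at every spot kept, the SD of the log2 difference was 0.08 at the median and 0.39 at most. Among the 33 of them within 1 log2 unit of the level of Cebpe the median SD was 0.10 and the largest 0.19. This spread covers the spot on the slide and neither the culture nor the labelling. The difference of Cebpe was larger than any of these SDs, and that of Cebpa was larger than the largest SD of 0.24 among the 52 probes near its level. The differences of Cebpb and Cebpd exceeded the median SDs near their levels, 0.07 for each, and lay below the largest, 0.24 and 0.21. Those of Cebpg and Cebpz lay below the median SDs, 0.06 and 0.07.

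Set among the 21707 probes that both arrays read well above background, the probe of Cebpe had the 20th highest difference. Among the 2080 probes within 0.5 log2 units of its mean level, the middle 90% of differences ran from -0.46 to 0.37, and 2 probes, Cebpe included, differed by as much in either direction. Around the level of Cebpa the middle 90% ran from -0.26 to 0.30, so that Cebpa lay below this range, and 3.74% of 1817 probes differed by as much. Around Cebpb 47.3%, around Cebpd 24.0%, around Cebpg 71.5% and around Cebpz 90.5% of probes differed by as much as the member did. The rise of Cebpe chose the set. Its rank, its share of probes and its size against the SDs above are therefore description and no test.

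**Figure D2:**
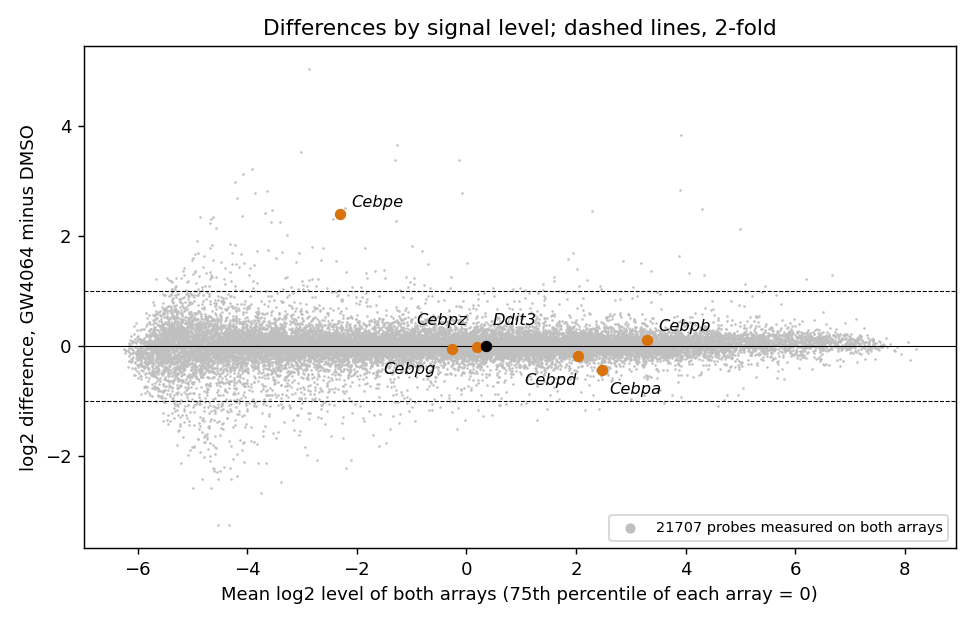
The log2 difference of GW4064 minus DMSO (vertical axis) against the mean log2 level of both arrays (horizontal axis, 75th percentile of each array at 0) for 21707 probes in grey, with the C/EBP genes in orange and Ddit3 in black. Dashed lines mark 2-fold. Cebpe stands at 2.39, above the cloud at its level, Cebpa at -0.44 lies at the lower edge, and the other members lie within the cloud.

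The genes nearest to Cebpe in the order of differences were of mixed function and brightness. Just above it stood Mpp4 at 2.47, Gda at 2.44 and Cd200r2 at 2.42. Gda encodes guanine deaminase, and its signal went from 2548 to 14511. Just below it stood Saa3 at 2.35, Col4a5 at 2.31 and Pramel26 at 2.30. Saa3 is an acute-phase gene that C/EBP factors are known to bind, and its signal went from 31.4 to 168. With a normexp background correction Saa3 was at 1.17. The spots of Mpp4, Cd200r2, Saa3 and Col4a5 had 4 to 6 other spots within 300 µm that differed 8-fold or more between the arrays, that of Pramel26 had 1, and those of Gda and Cebpe had 0.

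Large differences were clustered on these arrays, so the surroundings of each member's spot were examined. Spots with 2 or more other spots within 300 µm that differed 8-fold or more made up 16.5% of all non-control spots and are called areas of clustered differences here. None of the 40 spots within 300 µm of Cebpe differed 8-fold, their differences ran from -0.44 to 1.02, and the nearest spot with an 8-fold difference was 1360 µm away. Cebpb, Cebpd, Cebpg, Cebpz and Ddit3 likewise had 0 such spots within 300 µm. Cebpa lay in an area of clustered differences. Of the 58 spots around it 4 differed 8-fold or more, all of them brighter on the GW4064 array, the nearest at 73.8 µm, and the differences ran from -2.85 to 4.31. The spot of Cebpa itself was dimmer on the GW4064 array, and the part of its position in the lower value was not tested.

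**Figure D3:**
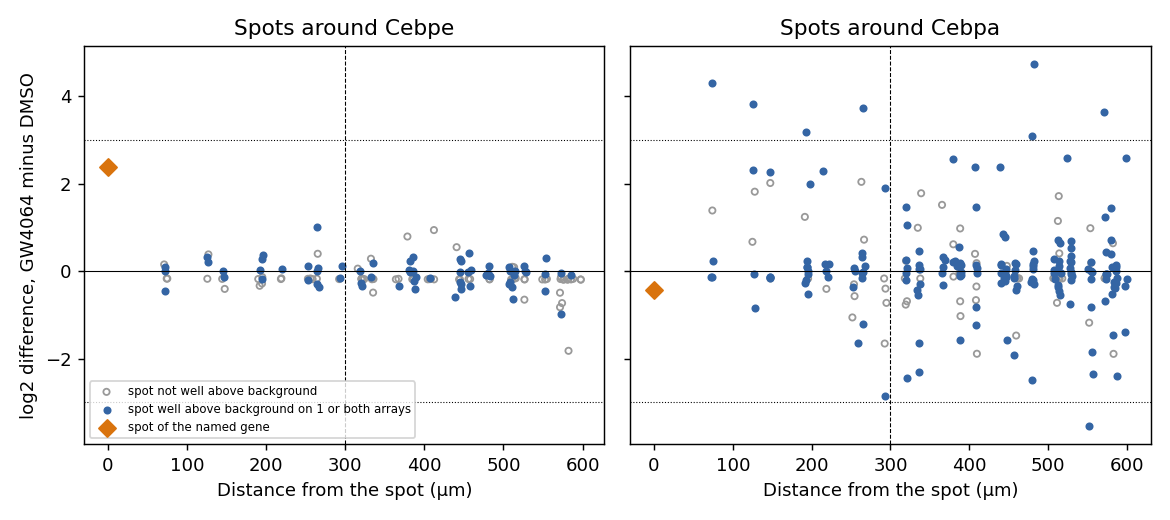
The log2 difference of GW4064 minus DMSO for each spot (vertical axis) against its distance in µm from the spot of Cebpe (left) and of Cebpa (right), out to 600 µm. Filled circles are spots well above background on 1 or both arrays, open circles the other spots, and diamonds the named genes. Dotted lines mark 8-fold and the dashed line 300 µm. Within 300 µm, 0 of 40 spots around Cebpe are past 8-fold, while 4 of 58 around Cebpa are past it.

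The neighbours of the members on the chromosomes were taken in the gene order of GRCm38.p6. Cebpg is the nearest measured gene before Cebpa, with 2 annotated genes between them, and their differences were -0.06 and -0.44. The measured genes on either side of Cebpe, 1700123O20Rik and Slc7a8, had log2 differences of 0.14 and 0.28, against 2.39 for Cebpe. Cebpzos, which lies next to Cebpz, had a difference of 0.21, and Tmem189, the nearest measured gene before Cebpb, had 0.05. Those named so far were within 2-fold, and Chst8, the gene that comes second before Cebpg among measured genes, was at -1.62.

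The bZIP factors that can pair with C/EBP proteins were all measured, 18 of 18 genes, and none was 2-fold or more higher or lower. Their differences ran from -0.39 for Fos to 0.39 for Fosl1, with a median of -0.02. The brightest probes of the list on the DMSO array belonged to Atf3, a stress-induced factor, with signals of 72595 and 72415, and to Atf4, the main factor of the amino acid and unfolded protein responses. The signals of Atf4, as means of 2 probes, were 33542 and 39955, with a log2 difference of 0.16. Of the 18, 7 were higher and 11 were lower, which became 2 and 16 with the spike-in centring.

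Of 18 factors known to act on C/EBP genes or proteins 17 were measured, 8 higher and 9 lower, with a median of 0.00. Myb, a factor of immature haematopoietic cells that co-operates with C/EBP factors at granule genes, was the 1 gene past 2-fold, with signals of 34.8 and 117 and a log2 difference of 1.69. It was 0.86 with the normexp correction, and its spot lay in an area of clustered differences. Trib1, whose product takes C/EBPα to degradation, had log2 differences of -0.55 and -0.62 on 2 probes, and 1 of those probes lay in such an area. Its relative Trib2 was not well above background with either treatment. Spi1, which encodes PU.1, the partner of C/EBP factors at myeloid genes, had signals of 1975 and 2040 and a log2 difference of -0.02. Irf8, which favours monocytes over granulocytes, was at 0.20 and Egr2, an IL-4-induced factor, at -0.11. Stat6, which carries the IL-4 signal, was at -0.01.

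Granule and maturation genes that C/EBP factors control in granulocytes were given their own list, since C/EBPε is the family's granulocyte factor. Of 18 genes 16 were measured, 7 higher and 9 lower, with a median of -0.33 beside 0.01 over all genes. With the spike-in centring 3 were higher and 13 lower, with a median of -0.52. Mmp9, the gelatinase of tertiary granules that macrophages also make, was 6.88-fold higher, from a signal of 437 to 3151. It was printed 10 times, and its difference of 2.78 had an SD of 0.11 over the 10 copies and was positive at all of them. Prg2, the major basic protein of eosinophil granules, was 2.77-fold lower, from 132 to 49.9. Its spot lay in an area of clustered differences.

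The secondary granule genes, whose expression C/EBPε governs in granulocytes, were not 2-fold or more higher. Ltf, which encodes lactoferrin, had signals of 338 and 200 and a log2 difference of -0.82, and its spot lay in an area of clustered differences. Ngp, neutrophilic granule protein, had signals of 165 and 99.8 and a difference of -0.79. Lcn2, which encodes lipocalin-2, had signals of 266 and 168 and a difference of -0.72. Camp, the cathelicidin gene, was at -0.32, and Mmp8, neutrophil collagenase, at 0.02. Of these 5 genes 4 were lower, but they were named after their values were seen. Of all 16 measured granule genes 7 were higher and 9 lower, beside 51.6% of all measured genes higher. Chil3, a granule gene of neutrophils that is also a classical gene of IL-4-treated macrophages, had the brightest probe of the list, with signals of 152220 and 166780 and a difference of 0.07. By real-time PCR the paper reports more Chil3 mRNA with GW4064 under M2 conditions, which the array value does not show. Csf3r, the G-CSF receptor gene, was at 0.01. Cd177 and Fcnb were not well above background with either treatment.

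Of these 18 granule genes 15, or 83.3%, are also on the lists of granulocyte markers, 28 genes in all, of which they make up 53.6%. The marker lists are therefore given beside them. Of 10 granulocyte precursor markers 9 were measured, 1 higher and 8 lower, beside 51.6% of all measured genes higher. None of the 9 was 2-fold, and their median was -0.48. The markers of primary granules among them did not all run one way. Mpo, which encodes myeloperoxidase, was at -0.94 from signals of 381 and 208, Ctsg, the cathepsin G gene, at -0.65 and Elane, neutrophil elastase, at -0.34 from 2130 and 1758. Prtn3, the proteinase 3 gene, was the higher one at 0.41, a bound, being well above background with GW4064 alone and in an area of clustered differences. The summed signal of the 9 was 177730 with DMSO and 177110 with GW4064, nearly all of it from Cd63, a lysosomal gene of many cell types, and without Cd63 it was 3207 and 2425. Outside the areas of clustered differences 7 of the 10 were measured, and all 7 were lower.

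Among 11 mature neutrophil markers 7 were measured, 4 higher and 3 lower, with a median of 0.01 that was below 0 under 6 of 11 other settings, at lowest -0.18. S100a8 and S100a9, which encode the subunits of calprotectin, were at -0.45 and -0.88. The higher members included Mmp9 at 2.78, given above, and Cxcr2, a chemokine receptor gene, at 0.34. Without Csf3r, the brightest, the summed signal was 11912 and 10428. Retnlg, Cd177 and Il1r2 were not well above background with either treatment. Of 7 eosinophil markers 3 were measured, and Epx, the eosinophil peroxidase gene, Il5ra, Prg3 and Alox15 were not well above background. Siglecf and Ccr3 were at 0.10 and 0.30, the summed signal of the 3 was 2535 and 2906, and Prg2 is given above. Of 10 mast cell and basophil markers 4 were measured, 1 higher and 3 lower, all under 2-fold, with a median of -0.52. Their summed signal was 154 and 131, and the brightest, Gata2 and Mcpt4, were at 0.17 and -0.91. In a bulk sample, fewer cells of a type and less RNA per cell cannot be told apart, and the part of granulocyte precursors in the values of Cebpe and of the granule genes was not tested.

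The labelled cell type had its markers. Of 12 macrophage markers 10 were measured, 7 higher and 3 lower, all within -0.34 and 0.19, with a median of 0.06 and a summed signal of 204040 and 195810. Csf1r, the M-CSF receptor gene and itself a C/EBP target, was at -0.24 as the mean of 3 probes, and Adgre1, an adhesion receptor gene of macrophages, was at -0.25. Cd163 was not well above background with either treatment. With the spike-in centring 1 of the 10 was higher and 9 were lower.

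Most of the measured stromal markers were lower. Of 12 genes 11 were measured, 1 higher and 10 lower, beside 51.6% of all measured genes higher. The median of the 11 was -0.76, and their summed signal was 29522 with DMSO and 16433 with GW4064. Postn and Acta2 were 2-fold or more lower, at -1.11 and -1.05 (-0.98 and -0.99 with normexp), beside 2.71% of all measured genes. Lum was not well above background. The collagen gene Col1a2 was at -0.99 and Sparc, a matrix protein gene, at -0.80. Of 8 erythroid markers 5 were measured, 1 higher and 4 lower, with a median of -0.69 that became -0.25 with normexp and -0.11 with probes measured on both arrays alone, while Alas2 and Hbb-bs were among those not well above background. Klf1, well above background with DMSO alone, was at least 3.75-fold lower, from 54.2 to 4.77, in an area of clustered differences, and at -0.65 with normexp. The summed erythroid signal was 1566 and 1695, most of it from Tfrc.

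Markers of dendritic cells and lymphocytes were mixed. Of 8 dendritic cell markers 5 were measured, with a median of -0.04, and Xcr1, Clec9a and Cd209a were not well above background. The brightest, Itgax and Siglech, were at -0.30 and -0.04, and the summed signal was 223400 and 196630, most of it from Itgax, which macrophages also express. Flt3, a receptor of early progenitors and dendritic cells that is well above background with GW4064 alone, was at least 4.94-fold higher, from 10.5 to 81.5, and its spot had 3 others with 8-fold differences around it. With the normexp correction Flt3 was at 0.72. Of 8 T, B and NK cell markers 3 were measured, Cd4 at -0.15, Cd3e at 0.18 and Ms4a1 at least 2.47-fold lower, from 35.8 to 7.08, with a summed signal of 1548 and 1483. Ms4a1 was at -0.57 with normexp. Cd3d, Cd8a, Cd79a and Ncr1 were among those not well above background. What these cells contribute to the values of the C/EBP genes was not tested.

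Macrophage genes whose promoters or enhancers C/EBP factors bind were also listed, with earlier results of these data known. Of 20 genes 17 were measured, 12 higher and 5 lower, with a median of 0.13, and this became 8 higher, 9 lower and a median of -0.06 with the spike-in centring. Over all measured genes 51.6% were higher, and 7 of the 10 measured macrophage markers were. Of the 17 genes 4 were past 2-fold upwards and 1 downwards, beside 2.04% and 2.71% of all genes. The counts are no independent evidence of a direction. Arg1, the arginase gene on whose enhancer C/EBPβ acts together with the IL-4 signal, was at 3.82, from a signal of 4875 to 72297. Saa3 is given above, Il1b, the interleukin-1β gene, was at 1.90 and Ccl2, a monocyte chemokine gene printed 10 times, at 1.09 with an SD of 0.06 over its copies. In the paper's real-time PCR under M2 conditions GW4064 raised Arg1 but did not induce Ccl2, unlike the array value of Ccl2. With the normexp correction Il1b was at 0.64, and Ccl2 was at 0.91 with the spike-in centring. Il10, the gene of an anti-inflammatory cytokine, had a mean signal of 45.5 with DMSO and 16.8 with GW4064 and a log2 difference of -1.60. That value is a bound, because the probe as a whole passed on the DMSO array alone. Over the 7 of its 10 copies kept on both arrays, of which 3 were well above background with GW4064, the mean difference was -1.47 with an SD of 0.48, and with the normexp correction the gene was at -0.50. Csf2ra, the GM-CSF receptor gene, was at 0.11. Il6 and Cxcl2 were not well above background with either treatment, and Pparg was at -0.30 with an SD of 0.06 over 10 copies.

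Adipocyte genes under C/EBP control were included because Cebpb, Cebpd and Cebpa act in sequence in fat cell differentiation. Of 12 genes 9 were measured, 6 higher and 3 lower, none 2-fold, with a median of 0.06 that was below 0 under 3 of 11 other settings, at lowest -0.13. The list's brightest probes were those of Lpl, the lipoprotein lipase gene, at -0.06, and Cd36, the fatty acid transporter gene, at 0.02. Plin1, Lep and Pck1 were not well above background.

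Cebpe belongs to a set of genes that retinoic acid induces through its nuclear receptors, and 16 other such genes were examined. Of these 12 were measured, 8 higher and 4 lower, with a median of 0.25, and 4 were 2-fold or more higher. Over all measured genes 51.6% were higher and 2.04% were 2-fold or more higher. The median was 0.07 with the spike-in centring and 0.06 with no filter on dim probes, where 8 were higher and 8 lower. Rarb, the retinoic acid receptor β gene, had 2 probes, 1 of which went from 28.8 to 985 and the other of which was at least 10.8-fold higher. Cyp26b1, which encodes an enzyme that breaks down retinoic acid, was well above background with GW4064 alone and at least 14.2-fold higher, from 4.17 to 234. Tgm2, the transglutaminase 2 gene, had log2 differences of 2.12 and 2.48 on 2 probes, and Aldh1a2, which encodes an enzyme that makes retinoic acid, was at 1.35. With the normexp correction Rarb was at 2.59, against 4.23 as the reported mean of its probes, and Cyp26b1 at 1.76, against 3.83. Aldh1a2 was then at 1.04 and Tgm2 at 2.32. The spots of Cyp26b1, Tgm2 and Aldh1a2 had 0 spots with 8-fold differences within 300 µm, as Cebpe had. The other measured genes of the list were not 2-fold higher. Dhrs3, which has the brightest probe, was at 0.29, and Cyp26a1, Cyp26c1, Stra8 and Hoxb1 were not well above background with either treatment. This list was written with some of these values known, so its count is no independent evidence of its direction.

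Of 12 genes for FXR and its known targets 6 were measured, 3 higher and 3 lower, with a median of -0.05 that became 0.54 when probes not measured on both arrays were left out. Nr1h4, the gene of FXR itself, was not well above background with either treatment, with signals of 3.46 and 3.24. It was read by 1 probe at 1 spot, in an area of clustered differences. The paper reports Nr1h4 mRNA in BMDMs by real-time PCR, so the low array signal does not show that it is absent. Nr0b2, which encodes the repressor SHP, had signals of 22.5 and 45.5 and a log2 difference of 0.95, and its spot lay in an area of clustered differences. Sdc1, the syndecan-1 gene, was at 1.12, or 0.93 with the spike-in centring, and Abcb4, a phospholipid exporter gene with the brightest probe of the list, at 0.12. Abcb11 and Slc51b, bile acid transporter genes, stood well above background with DMSO alone and were at least 3.15-fold and at least 3.14-fold lower. With the normexp correction they were at -0.48 and -0.67, within 2-fold.

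**Figure D4:**
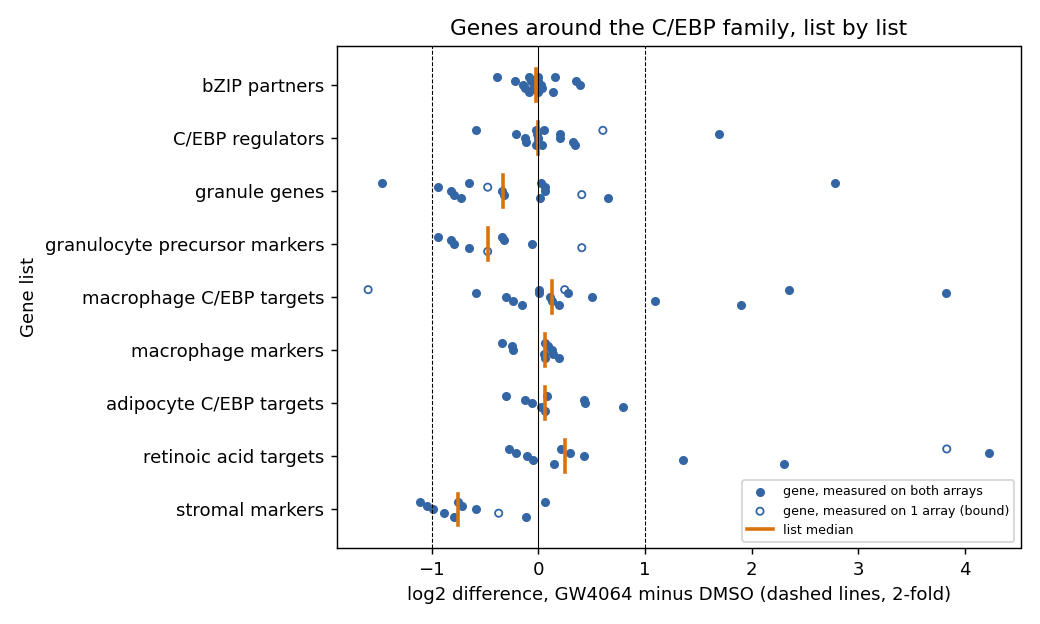
The log2 difference of GW4064 minus DMSO (horizontal axis) of each measured gene in 9 gene lists (rows). Filled circles are genes with a probe measured on both arrays, open circles genes measured on 1 array, where the value is a bound, and orange lines are list medians. Dashed lines mark 2-fold. Granule genes and granulocyte precursor markers have medians of -0.33 and -0.48. Of 12 measured retinoic acid targets 4 are 2-fold or more higher, beside 2.04% of all measured genes.

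Across 11 other ways of processing the arrays the log2 difference of Cebpe stayed between 1.74 and 2.39, and Cebpe was the only member 2-fold higher in each. Cebpd and Cebpg were lower under all 11 and Cebpa under the 10 that kept its spot, with ranges of -0.37 to -0.18, -0.24 to -0.04 and -0.62 to -0.42. Cebpb was higher under 10 and Cebpz lower under 10. Several of these settings could not change a member, as each has a single unmarked spot well above background on both arrays. Marked spots kept, probes measured on both arrays only, no filter and the brightest probe left every member as reported. Leaving out the areas of clustered differences did so too, except for Cebpa, and the deposited table differs by a constant shift. The counts of settings are therefore not counts of separate checks.

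**Figure D5:**
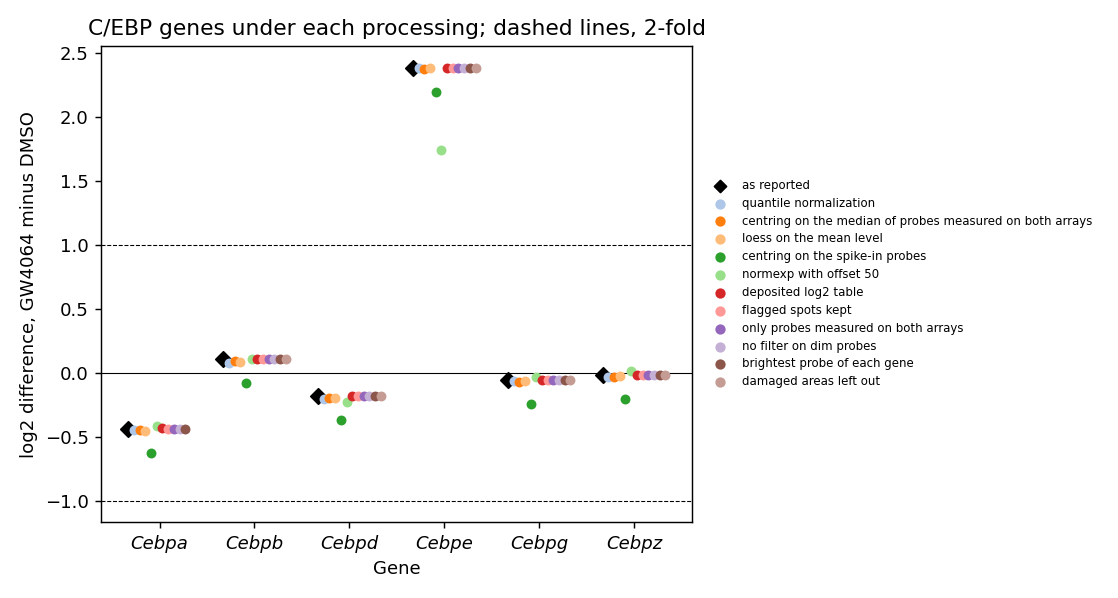
The log2 difference of GW4064 minus DMSO (vertical axis) of each C/EBP gene as reported (diamonds) and under 11 other ways of processing (circles, named in the key). Dashed lines mark 2-fold. Cebpe stays above 2-fold throughout, its lowest value being 1.74 with normexp, and the remaining genes stay within 2-fold, with spike-in centring lowest for all of them.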

How the data were processed

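RNA was measured on 2 Agilent 44K-format 1-colour arrays, 1 for each condition. The authors deposited the intensity of each spot as given by Agilent Feature Extraction 10.7.1.1, after background subtraction and detrending and with no scaling between arrays. A log2 table with a column for each array was deposited too. The normalization behind it is not given in the sources used here. After a constant shift of 0.0022, its differences matched those computed here to within 2.8e-06 at 39200 probes, so its scale is that of a 75th percentile shift, and the centring of its probes is unknown. Its column medians were 0.03 and -0.05.

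The log2 of the processed signal minus its 75th percentile over the non-control spots was taken for each array. Spots marked as uneven or as outliers among copies were left out, and copies were averaged. A gene is the mean of its probes that passed on 1 or both arrays, that is, that lay well above background there. A probe well above background on 1 array only was set, on the other, to the higher of its own signal and the lowest signal well above background, 15.7 for DMSO and 15.1 for GW4064. Such folds are written "at least", and log2 values of such probes are bounds. Both hold for the reported processing only, since the normexp correction gave smaller values for some of them. The share of probes well above background was 57.4% for DMSO and 58.5% for GW4064. Names came from RefSeq transcript accessions of GRCm38.p6, which matched 26445 probes. Coordinates are left out because the array was designed on a different build. No sequences of the members are printed, as sequence tables were not used here.

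No test was made. Members and gene lists were chosen with earlier results of these data known. Genes were named by rule: the members, Ddit3, list genes past 2-fold, the 2 brightest of each list, and the genes beside Cebpe in the ranking. Marker genes not above background may be named. The other genes named with values (among them Trib1, Spi1, Stat6, Fos, Fosl1, Ltf, Ngp, Lcn2, Camp, Mmp8, Mpo, Ctsg, Prtn3, Cxcr2, Nr0b2, S100a8, Pparg and the chromosome neighbours) were chosen after their values were seen. On simulated data for this comparison, with 200 of 23689 probes changed 4-fold, 196 were recovered at 2-fold and 0 others were called. The simulation put even, independent noise on the DMSO levels and held no clustered differences. It therefore checks the calculation and cannot give the rate of false calls on the real arrays. The 11 other settings were quantile normalization, centring on the median probe, centring on the spike-in probes of added control RNA, a loess on level with a span of 0.3, normexp (a model-based background correction on median pixels, offset 50), the deposited table, marked spots kept, probes measured on both arrays only, no filter, the brightest probe of a gene, and areas of clustered differences left out. The normexp correction was run in limma 3.58.1 under R 4.3.3. The other steps were run in Python 3.11.15 with pandas 2.3.3, numpy 2.4.6, statsmodels 0.14.6 for the loess, scipy 1.17.1 for spot distances, and matplotlib 3.10.9.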

Additional observations from a re-analysis of the deposited data

How the results depend on the processing

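No paired analysis was possible because the comparison rests on 1 array a side. For the same reason no replicate could be left out. The log2 difference of Cebpe was 2.20 with centring on the spike-in probes and 1.74 with normexp (offset of 50), and within 0.08 of the reported 2.39 under the other settings. Several of those other settings could not move it, as given above. The count of C/EBP genes 2-fold or more higher was 1, and of those lower 0, under each setting and at thresholds of 1.5-fold and 4-fold. Over all genes the counts of 276 higher and 367 lower became 72 and 64 with normexp, 107 and 164 with probes measured on both arrays only, 698 and 767 with no filter on dim probes, 168 and 202 with the areas of clustered differences left out, 594 and 752 at 1.5-fold, and 65 and 79 at 4-fold. Of the genes past 2-fold 42.9% were higher, against 29.0% with the spike-in centring, which moved the median of all genes by -0.19, and 52.9% with normexp. Leaving out the areas of clustered differences gave Cebpa no value. Without those areas the granule genes were 6 higher and 7 lower, with a median of -0.32. The cause of these shifts was not tested. A single spot per gene and array limits all of these values.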
